A study of Mus musculus with 6 samples.

Results

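A set of 9 genes for proteins of the peroxisomal membrane, or related to such proteins, was followed in the livers of mice labelled as liver knockouts of Pex5, the import receptor for peroxisomal enzymes. They are the fatty acid pumps Abcd2 and Abcd3 with their relative Abcd4, the small membrane proteins Pxmp2, Mpv17, Mpv17l and Pxmp4, the acyl-CoA synthetase Slc27a2 and the tether Acbd5. The genes were chosen by name, and each is represented by its probe set (a group of short array probes for 1 transcript) of highest mean over all 6 arrays, so that 9 of the 18193 genes measured are described. Total RNA from the livers of 10-week-old male mice was hybridised to Affymetrix arrays, 1 array per liver. The WT group holds 3 livers, and the KO group holds 3 livers of genotype L Pex5 -/-, titled L-Pex5 Knockout. The labels put all 6 mice, WT included, on a mixed background named Alb-Cre Tac:[Sw]fBR. Alb-Cre is a recombinase that hepatocytes make from the albumin promoter, and the liver pieces also hold other cells. Levels are on the log2 scale. A difference is the KO mean less the WT mean on that scale, given with the SE of the fit, and a level is given with its SD (n = 3 livers).

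Peroxisomes shorten very-long-chain and branched fatty acids, make ether lipids and finish bile acid side chains. Their matrix enzymes are carried in by the receptor PEX5, whereas their membrane proteins are inserted by PEX3, PEX16 and PEX19 and do not need PEX5, so that a liver without PEX5 can still form membrane shells. Fatty acyl groups cross the membrane through ABC transporters of subfamily D, each built from a pair of chains, while small solutes pass through channels such as PXMP2.

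Over all genes, r was 0.989 or more between arrays of the same group and 0.976 or less between a WT and a KO array. The targeted transcript Pex5 was at 9.22 ± 0.11 in KO livers and 9.04 ± 0.14 in WT livers, and nothing in the sources places its probes inside or outside the deleted part, so it does not check the labels. Hepatocyte markers were high in every liver, the mean over 7 of them being 13.57 to 13.67 in WT and 13.57 to 13.63 in KO. Of these 7, 1 was called lower, the fibrinogen chain Fgb (-0.49 ± 0.09, adjusted p = 0.00533), whose sign turns with the bacterial controls described below. Of the markers of other liver cells, limma called 0 of 8 for macrophages and 0 of 6 for lymphocytes (0 and 1 at an unadjusted p under 0.05). The mean over the macrophage markers spread widely in WT, from 7.57 to 8.77, against 7.96 to 8.40 in KO. WT replicate 3 was the lowest WT liver in all 8 of them, so a difference could be missed there. For endothelial cells 1 of 7 was higher and 3 lower, for stellate cells 2 of 7 were lower and for bile duct cells 1 of 5 was lower. Over all genes, 24.0% were called. The signs of all these lower markers turn with the bacterial controls, as for Fgb. The higher one, Lyve1, lay below the background level (defined further on) in every WT liver. The part of these cells in the results was not tested. The 38 probe sets for bacterial control transcripts added to the samples, several per transcript, were dimmer in KO. Their mean was 9.29 to 9.40 against 9.81 to 9.91 in WT (exact two-sided permutation p = 0.1, the smallest that 3 against 3 arrays allow). Centring the arrays on them adds 0.51 to every difference, and the median difference over all genes then goes from -0.055 to 0.46. Of the lower markers, Fgb, Tek, Reln and Krt19 (-0.49, -0.48, -0.50 and -0.51) lie so close to this shift that their turned signs are not fixed. A direction below is thus one against the bulk of the deposited values, and those of the 9 genes that turn with the controls are named.

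Abcd2, Abcd3 and Mpv17 were higher in KO, Pxmp2 and Mpv17l were lower (Mpv17l not with the bacterial controls), and Abcd4, Pxmp4, Slc27a2 and Acbd5 did not pass the test (limma, Benjamini-Hochberg adjusted over all genes, threshold 0.05). That is 5 of 9 genes called (55.6%), beside 24.0% of all genes. By direction, 3 of 9 were higher, beside 14.2% of all genes, and 2 of 9 were lower, beside 9.75%. The KO and WT livers did not overlap in 6 of 9 genes, beside 44.8% of all genes. In 3 of these all KO livers lay above all WT livers (22.1% of all genes) and in 3 below (22.6%). The median difference of the 9 genes was 0.057, and the differences ran from -0.78 to 2.22. The median size of the difference, regardless of sign, was 0.42, beside 0.21 over all genes. These all-gene figures include dim genes. Of the 12042 genes with a mean level above background, limma called 2628 higher and 1571 lower in a fit of their own. All 9 genes were among them, Abcd2 through its KO livers alone, and 3 were higher and 2 lower. Under centring on the bacterial controls, 6 of the 9 genes were higher and 1 was lower, beside 12970 higher and 409 lower of all 18193 genes.

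**Figure D1:**
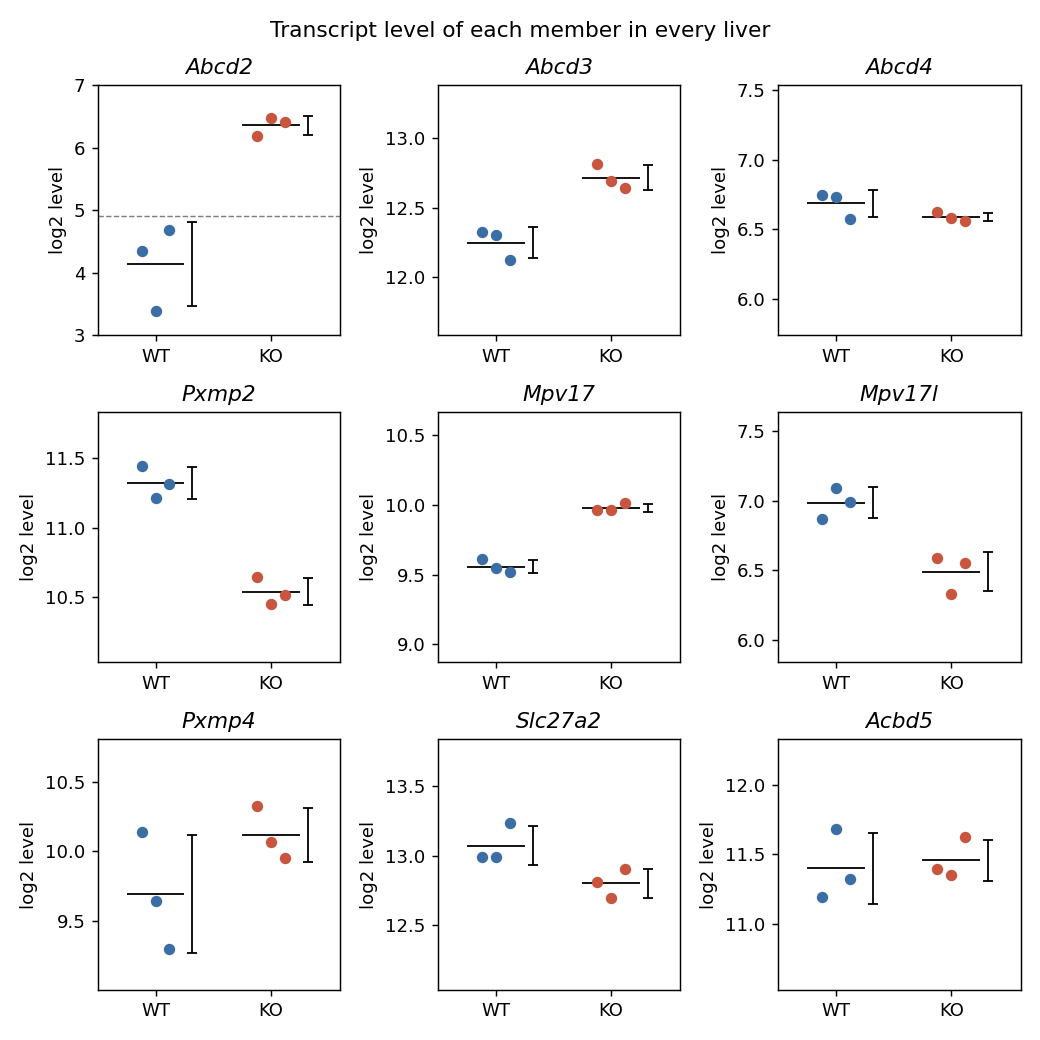
Log2 level of each gene in every liver (points, 3 WT and 3 KO), with the group mean (line) and SD (bar). Vertical axes differ between panels, Abcd2 spanning 4 log2 units and the others 1.8, and the dashed line in the Abcd2 panel is the background level of 4.90, above which only the KO livers lie.

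RefSeq's table of start sites on GRCm38.p6 held 7 windows for 5 of the 9 genes, namely Abcd3, Mpv17, Pxmp4, Slc27a2 and Acbd5. The 250 bases before the start are printed for 4 of them: Abcd3 and Mpv17 because they rose by like amounts, and Pxmp4 and Slc27a2 because they were the only ones to hold any motif searched. Lower case is sequence without a match and capitals mark the matches, on either strand.
Abcd3 (chr3:121815303-121815552, minus strand): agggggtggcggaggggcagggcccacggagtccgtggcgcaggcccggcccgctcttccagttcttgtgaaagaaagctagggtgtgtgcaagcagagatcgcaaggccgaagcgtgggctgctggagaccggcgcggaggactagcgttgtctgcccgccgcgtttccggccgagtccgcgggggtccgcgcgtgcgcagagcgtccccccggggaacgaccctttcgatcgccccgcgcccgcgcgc
Mpv17 (chr5:31154252-31154501, minus strand): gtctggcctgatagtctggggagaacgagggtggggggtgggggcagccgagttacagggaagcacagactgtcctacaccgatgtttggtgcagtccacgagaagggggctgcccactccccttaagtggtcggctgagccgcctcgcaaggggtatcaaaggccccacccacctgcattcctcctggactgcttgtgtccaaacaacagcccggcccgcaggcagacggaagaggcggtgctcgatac
Pxmp4 (chr2:154603674-154603923, minus strand): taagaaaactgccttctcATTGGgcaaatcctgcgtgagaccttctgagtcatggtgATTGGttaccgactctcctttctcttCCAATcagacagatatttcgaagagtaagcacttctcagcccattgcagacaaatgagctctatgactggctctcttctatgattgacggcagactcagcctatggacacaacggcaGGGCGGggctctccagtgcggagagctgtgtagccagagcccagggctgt
Slc27a2 (chr2:126552774-126553023, plus strand): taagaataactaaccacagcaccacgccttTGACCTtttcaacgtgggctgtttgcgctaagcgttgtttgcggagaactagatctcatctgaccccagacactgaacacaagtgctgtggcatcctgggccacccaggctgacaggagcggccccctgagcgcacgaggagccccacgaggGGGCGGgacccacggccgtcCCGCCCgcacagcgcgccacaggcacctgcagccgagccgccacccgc

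The motifs searched on both strands were the PPAR element AGGTCANAGGTCA, the site of the fatty acid receptor PPARalpha with its partner RXR, its 6-base unit AGGTCA, which lies within it, the GC box GGGCGG, the CCAAT box CCAAT and the TATA box TATAAA. The full element was found in none of the 7 windows and in 0.0335% of 32851 windows of the same length in the mouse table. The Slc27a2 window held the unit AGGTCA on the opposite strand, from base 220 to base 215 before the start, and 14.0% of all windows hold it. Read on that strand, the stretch AGGTCAAAGGCGT differs from the element at 3 positions, a closeness reached by 21.3% of all windows. That window also held 2 GC boxes, and the Pxmp4 window 1 GC box and 3 CCAAT boxes (32.7% and 33.8% of all windows hold at least 1). The Abcd3 and Mpv17 windows held none of these motifs and were rich in G and C, at 72.0% and 62.8%, against a median of 52.4%. A match describes letters only.

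Abcd2 gave the largest difference of the 9 genes. Its protein, ALDRP, is a peroxisomal pump for very-long-chain and polyunsaturated acyl-CoA. In WT, Abcd2 stood at 4.35, 3.39 and 4.68, and in KO at 6.19, 6.48 and 6.40. All WT livers lay below the background level of 4.90 (the 95th percentile of 39 olfactory receptor genes, which a liver should not express), and all KO livers lay above it. Since the WT level is only bounded, the transcript was at least 2.74-fold higher in KO, with a measured difference of 2.22 ± 0.29 (SE, adjusted p = 0.0016). Of its 4 probe sets, a second one was also higher (measured difference 1.63 ± 0.22, adjusted p = 0.00181), at 3.63, 3.14 and 3.85 in WT and 5.11, 5.53 and 4.87 in KO. Its WT livers again all lay below background, and so did KO replicate 3 (4.87). The remaining pair, which lay at or below background on all 6 arrays, differed by 0.23 and -0.11. The mean of the 4 probe sets gave a difference of 0.99.

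Abcd2 is known to be abundant in fat cells, and markers of these cells were therefore read beside it. Of 5 adipocyte markers measured, 2 were higher and none lower, and their mean level was 4.54 to 4.72 in WT and 4.90 to 4.99 in KO. The higher ones were Fabp4, a fatty acid binding protein (1.05 ± 0.15), and Cidec, a lipid droplet protein. Cidec was at 3.95, 3.38 and 3.39 in WT and 4.81, 4.74 and 5.05 in KO, so that all WT livers and 2 of 3 KO livers lay below background and the size of its difference is not fixed. The fat cell hormones Adipoq and Lep were at or below background on all 6 arrays, Adipoq at 3.32 ± 0.17 in WT and 3.01 ± 0.14 in KO. Retn, above background in every liver, was at 6.13 ± 0.15 in WT and 5.90 ± 0.08 in KO. These 3 were not called, but in each all KO livers lay below all WT livers. The higher list mean in KO thus came from Fabp4 and Cidec alone. In whole liver, more cells of a type and more RNA per cell cannot be told apart.

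Abcd3 encodes PMP70, the main ABC protein of the liver peroxisome membrane, which takes in branched-chain and dicarboxylic acids and bile acid intermediates. Its level was 12.32, 12.31 and 12.12 in WT and 12.82, 12.69 and 12.64 in KO. All KO livers lay above all WT livers, in a bright transcript with a narrow spread. The rise was 1.38-fold (0.47 ± 0.10, adjusted p = 0.0131), and over 16 alternatives the adjusted p lay between 0.000188 and 0.0614. Leaving out KO replicate 1 ended the call (0.42, adjusted p = 0.0614). A dimmer second probe set was higher too, at 4.60, 4.88 and 3.74 in WT and 5.51, 5.50 and 5.38 in KO (measured difference 1.06 ± 0.26, adjusted p = 0.024), with all WT livers below background. It was the more variable of the pair, and the mean of both gave 0.76.

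Abcd4, which despite its family serves vitamin B12 export from lysosomes, did not pass. It stood at 6.75, 6.74 and 6.58 in WT and at 6.62, 6.58 and 6.56 in KO. The groups overlapped, and the difference was -0.098 ± 0.091 (95% interval -0.31 to 0.11, adjusted p = 0.454). Its sign turned with its other probe set, which lay below background (0.063), and with the bacterial controls (0.41). Taken within each array, the log ratio of Abcd3 to Abcd4 was higher in KO by 0.56. With the WT livers of Abcd2 set to the background level, the ratio of Abcd2 to Abcd3 was higher by at least 0.99 and that of Abcd2 to Abcd4 by at least 1.55. In each of these 3 pairs the KO values did not overlap the WT values (exact two-sided permutation p = 0.1, the smallest possible, and 0.117 after adjustment over 7 pairs of relatives).

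Pxmp2, Mpv17 and Mpv17l belong to one family of small proteins with several membrane-spanning stretches, and they did not move together. Pxmp2, a channel of the peroxisomal membrane that lets small solutes through, stood at 11.44, 11.21 and 11.31 in WT and at 10.65, 10.45 and 10.52 in KO. Every KO liver lay below every WT liver, and the fall was 1.72-fold (-0.78 ± 0.10, adjusted p = 0.00142). It kept its call under all 16 alternatives, but with the bacterial controls it was -0.27 (adjusted p = 0.0462, and 0.000237 to 0.0462 over all alternatives). Of all genes, 7.94% differed by more.

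Mpv17, whose protein sits in the inner mitochondrial membrane and is needed to keep mitochondrial DNA in the liver, rose. Its values were 9.61, 9.54 and 9.52 in WT and 9.96, 9.96 and 10.01 in KO. Its SDs of 0.047 in WT and 0.029 in KO were the smallest of the 9 genes, and the groups stood clear of each other. The difference of 0.42 ± 0.08 was 1.34-fold (adjusted p = 0.00959) and kept its call under all 16 alternatives. A second probe set, below background on all 6 arrays, gave 0.53 ± 0.09.

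Mpv17l, whose protein M-LP has been tied to the handling of reactive oxygen species, was lower. It read 6.87, 7.09 and 6.99 in WT and 6.59, 6.33 and 6.55 in KO. The groups did not overlap, and the fall was 1.41-fold (-0.50 ± 0.11, adjusted p = 0.0143). Leaving out KO replicate 2 ended the call (-0.42, adjusted p = 0.0578), and with the bacterial controls the difference was 0.016 (adjusted p = 0.911, from 0.00836 to 0.911 over 16 alternatives). Taken within each array, the log ratio of Pxmp2 to Mpv17 shifted by -1.20 and that of Mpv17 to Mpv17l by 0.92, without overlap between groups (exact permutation p = 0.1 each). This separation was fixed in advance, since Pxmp2 and Mpv17l lay wholly below WT in KO and Mpv17 wholly above. It adds nothing to the results of the single genes. The ratio of Pxmp2 to Mpv17l shifted by -0.29, with overlapping values (exact permutation p = 0.2).

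Pxmp4, or PMP24, is a peroxisomal membrane protein whose transport role is little known. It was 10.14, 9.64 and 9.30 in WT and 10.33, 10.07 and 9.95 in KO, the widest spread among the genes above background in every liver. WT replicate 1 reached into the KO range, and the difference of 0.42 ± 0.21 did not pass (95% interval -0.057 to 0.90, adjusted p = 0.175, and between 0.00405 and 0.416 over 16 alternatives). Without WT replicate 1 it was higher by 0.64 (adjusted p = 0.0287), and with the bacterial controls by 0.93 (adjusted p = 0.00405). Its second probe set showed the same order of livers within each group, at 9.34, 8.54 and 8.40 in WT and 9.51, 9.25 and 9.04 in KO, and differed by 0.51 ± 0.24.

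Slc27a2, also called FATP2, activates very-long-chain and branched fatty acids to acyl-CoA at the peroxisome and the endoplasmic reticulum and helps take up fatty acids. Its levels were 12.99, 12.99 and 13.24 in WT and 12.81, 12.69 and 12.90 in KO. All KO livers lay below all WT livers, but the difference of -0.27 ± 0.11 did not pass (95% interval -0.52 to -0.020, adjusted p = 0.107, and between 0.0451 and 0.293 over 16 alternatives). It was called lower with trend and robust options of the fit (adjusted p = 0.0451), and its sign turned with the bacterial controls (0.24). Its relative Slc27a5, the bile acid and fatty acyl-CoA ligase of hepatocytes, fell 3.02-fold, from 12.92 ± 0.12 to 11.33 ± 0.12 (adjusted p = 5.9e-05). Taken within each array, the log ratio of Slc27a2 to Slc27a5 shifted by 1.32, without overlap between groups (exact permutation p = 0.1).

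Acbd5 binds very-long-chain acyl-CoA and tethers peroxisomes to the endoplasmic reticulum through VAPA and VAPB. It stood at 11.19, 11.68 and 11.32 in WT and at 11.39, 11.35 and 11.62 in KO. The groups overlapped, and the difference was 0.057 ± 0.144 (95% interval -0.28 to 0.39, adjusted p = 0.791). Its sign turned when WT replicate 1 or KO replicate 3 was left out (-0.047 and -0.025), and with the bacterial controls it was called higher by 0.57 (adjusted p = 0.0151, the lowest of 16 alternatives, the highest being 0.947). Its second probe set differed by 0.11 ± 0.33.

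Over all 17 probe sets of the 9 genes, 6 were higher, 2 lower and 9 not called, beside 19.9% called of all 34945 probe sets with 1 symbol. No gene had probe sets called in opposite directions.

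**Figure D2:**
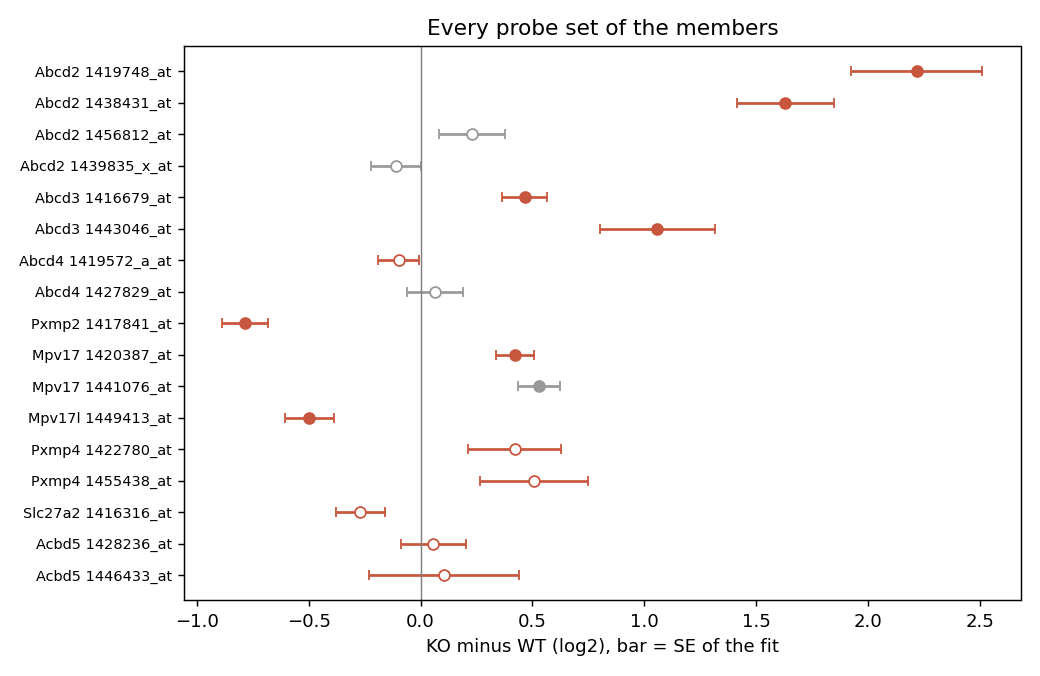
Difference between KO and WT (log2, bar = SE) for the 17 probe sets of the 9 genes, filled where limma called it. Grey marks probe sets whose mean lay below the background level of 4.90 in both groups, and both probe sets of Abcd3 and of Mpv17 lie to the right of 0.

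Other genes linked to the peroxisomal membrane and to fatty acyl handling were read beside these 9. Over all genes, 14.2% were higher and 9.75% lower, with a median difference of -0.055. Of 10 other carriers, enzymes and tethers, 2 were higher and 1 lower, with a median of 0.13 (1 and 2 with the mean of all probe sets of a gene). Not all are proteins of that membrane, since the list holds Vapa and Vapb of the endoplasmic reticulum and the ether lipid enzymes Agps and Gnpat. The acyl-CoA synthetase Acsl4 rose 3.07-fold (1.62 ± 0.13) and the ether lipid enzyme Agps 1.77-fold (0.82 ± 0.10). Acbd4, the closest relative of Acbd5 and like it a tether to the endoplasmic reticulum, fell 2.11-fold, from 8.93, 8.90 and 8.77 to 7.82, 7.81 and 7.73 (-1.08 ± 0.09, adjusted p = 0.00018). Whether Acbd4 and Acbd5 differed in their response was not tested. The carrier of CoA and other cofactors, Slc25a17, named here for its role rather than by the naming rule, differed by 0.27 ± 0.13 (adjusted p = 0.149).

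Of 13 membrane peroxins and division factors, 4 were higher and none lower, with a median of 0.23. Beside this and the next list, 14.2% of all genes were higher and 9.75% lower. Pex11a, which elongates peroxisomes before division, rose 3.62-fold (1.86 ± 0.11), and Pex19, the carrier of newly made membrane proteins, 1.35-fold (0.44 ± 0.09). Pex13, a docking protein for PEX5, rose by 0.43 ± 0.12 and the fission factor Mff by 0.41 ± 0.09. Without KO replicate 1 or KO replicate 2, 1 of the 13 was higher. Of 19 genes of peroxisomal beta-oxidation and acyl-CoA release, the enzymes that use what the pumps deliver, 12 were higher and 1 lower, with a median of 0.62. Among them Acot3 and Acot4, thioesterases, rose by 4.27 ± 0.13 and 2.43 ± 0.22, Ehhadh, the bifunctional enzyme, by 2.56 ± 0.13 and Crat, carnitine acetyltransferase, by 1.90 ± 0.12.

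The counts of the last lists also stand beside 14.2% of all genes higher and 9.75% lower. Of 8 other Slc27 genes and long-chain acyl-CoA synthetases, 2 were higher and 3 lower, with a median of 0.018. Without KO replicate 1 or KO replicate 2 only 1 of the 8 was lower. Acsl3 rose 2.19-fold, and Acsl6 was called lower with all arrays below background and with a sign that turned under the bacterial controls. Of 5 other acyl-CoA binding proteins, 1 was higher, Acbd3 (0.51 ± 0.10), and 1 lower, Acbd4. Of 12 ABC transporters of the same build in other membranes, with Mpv17l2, 2 were higher and 2 lower, with a median of 0.035 (none higher without KO replicate 1). They were the xenobiotic pump Abcg2 (0.64 ± 0.13) and the sterol pump Abcg1 (0.38 ± 0.11), and the peptide pump Tap2 (-0.80 ± 0.14) and the mitochondrial Abcb10 (-0.68 ± 0.10). Under centring on the bacterial controls, the other carriers, enzymes and tethers counted 9 higher and 1 lower, the peroxins 13 and 0, and the beta-oxidation genes 17 and 1. The Slc27 genes and synthetases then counted 5 and 1, the acyl-CoA binding proteins 4 and 1, and the transporters of other membranes 8 and 0. All 18193 genes counted 12970 higher and 409 lower under this setting.

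**Figure D3:**
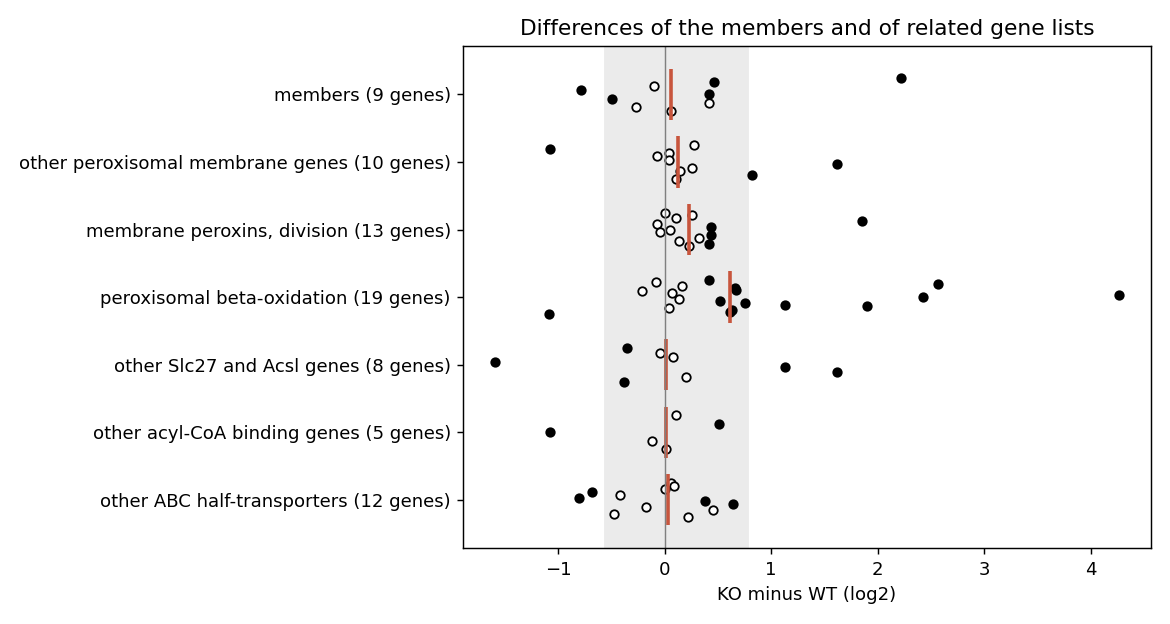
Difference between KO and WT (log2) of the 9 genes and of 6 related lists, filled where limma called the gene, with the list median as a red line. Grey is the range from the 5th to the 95th percentile of all genes (-0.56 to 0.78), and among the 9 genes only Abcd2 and Pxmp2 lie outside it.

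The genes whose values over the 6 arrays lay closest to the 3 members of largest difference were found by the mean gap between values centred on each gene's mean. For Abcd2, whose WT values below background enter the gap as measured, they were Sult1c2, Slc16a5 and Mfge8, with mean gaps of 0.15, 0.17 and 0.18. Pxmp2 was followed most closely by Mettl23, Slc2a8 and Tmem254a (0.032, 0.051 and 0.053). Mpv17l was nearest to Itch, 1500002F19Rik and Amigo1 (0.028, 0.030 and 0.035). With 2 groups of 3 livers, a small gap mostly means a like difference between groups, as for Mettl23, at -0.78 ± 0.10.

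The nearest measured protein-coding genes on either side of the 9 genes were also read, 18 in all, chosen by gene order in GRCm38.p6. Among them 4 were higher and 1 was lower, beside 24.0% of all genes called in either direction. Of these 5, 4 had the sign of their neighbour among the 9: Kif21a beside Abcd2 (0.64 ± 0.10), F3 beside Abcd3 (0.71 ± 0.22), Pdxdc1 beside Mpv17l (-0.28 ± 0.09, its sign turning with the bacterial controls as that of Mpv17l does) and Abi1 beside Acbd5 (0.52 ± 0.10). The remaining one, Pgam5, was higher by 0.59 ± 0.12 beside Pxmp2, which fell. Acbd5 itself was not called (0.057 ± 0.144), so its own sign is not fixed. Neither neighbour of Mpv17, Ucn and Gtf3c2, was called (-0.10 ± 0.10 and -0.11 ± 0.12).

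**Figure D4:**
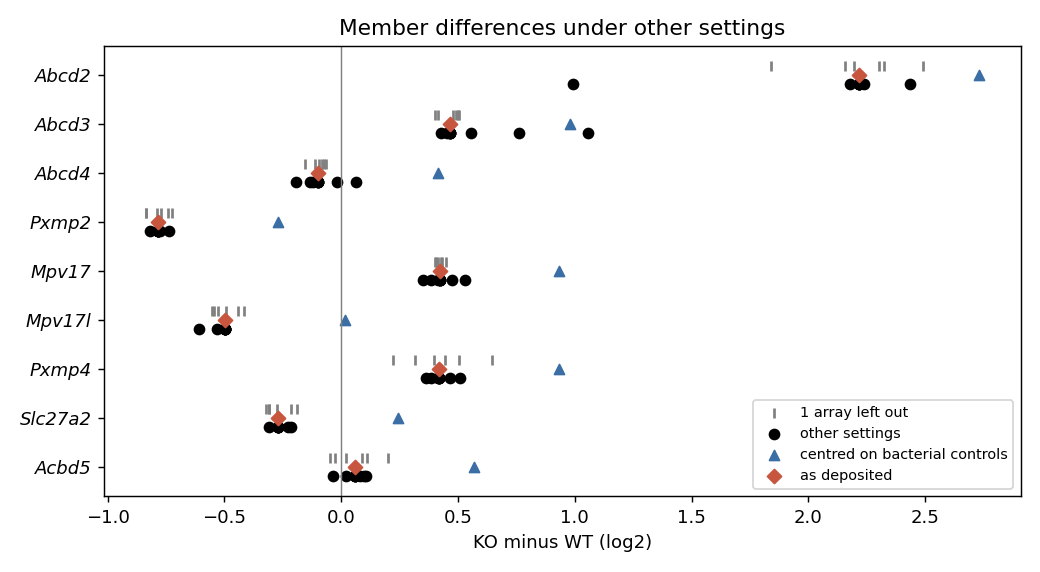
Difference between KO and WT (log2) of the 9 genes as deposited (red diamonds), with 1 array left out (grey ticks), under other settings (black) and after centring on the bacterial controls (blue). Abcd2, Abcd3 and Mpv17 stay above 0 and Pxmp2 below 0 throughout, while Mpv17l, Slc27a2 and Abcd4 cross 0 with the controls.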

How the data were processed

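The deposited log2 values come from RMA, which corrects background, quantile-normalizes probes and summarises them by probe set. The tool is named in the submitters' processing notes, and its version is not given in the sources used here. The log2 scale was read from the values, 2.15 to 14.9. RMA pulls arrays towards 1 distribution, so levels are relative, and differences between dim values are compressed.

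The titles gave the groups and numbers. Of 45101 probe sets, 34945 have 1 gene symbol in the platform annotation of 2016. Genes were fitted with limma 3.58.1 in R 4.3.3 (lmFit, eBayes, two-sided) and adjusted over all 18193. The fit was tested on simulated data. Genes named were all 9, Pex5, up to 4 called genes of largest difference per list (2 where none was called), and the 3 nearest patterns. Neighbouring genes and Slc25a17 were added later. Background was 4.90, and the bacterial controls exclude Cre and Trp. With these the shift would be smaller, and the turned sign of Mpv17l (0.016 ± 0.13) may depend on this choice. The same holds for the markers Fgb, Tek, Reln and Krt19. Members and lists were chosen with earlier results of these data known. The labels call the arrays biological replicates. The number of arrays limits the precision.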

Additional observations from a re-analysis of the deposited data

How the results depend on the processing

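Each gene was recomputed under 16 alternatives, 6 of which left out 1 array, and Abcd2, Pxmp2 and Mpv17 kept direction and call in all of them. Under centring on the bacterial controls, signs turned for Abcd4 (0.41), Mpv17l (0.016) and Slc27a2 (0.24), Pxmp4 (0.93) and Acbd5 (0.57) passed as higher, and 6 genes were higher and 1 lower, against 3 and 2. Abcd4 was 0.063 with the probe set of largest variance, Acbd5 was -0.033 with array weights, and Slc27a2 passed at -0.27 with trend and robust options. At a threshold of 0.01, Abcd3 (0.47) and Mpv17l (-0.50) lost their calls, and 1 gene was lower. Leaving out 1 array gave 0.40 to 0.50 for Abcd3, -0.55 to -0.42 for Mpv17l, 0.22 to 0.64 for Pxmp4 and -0.047 to 0.20 for Acbd5, with 2 to 4 genes higher and 1 to 2 lower. Over all genes, 2589 were higher and 1774 lower, against 1604 and 984 without KO replicate 1, 1497 and 888 without KO replicate 2, 1956 and 1156 without KO replicate 3, 1285 and 732 at 0.01, and 12970 and 409 with the bacterial controls. The cause was not tested, except that centring adds 0.51 to each difference and a left-out array leaves fewer samples. A replicate block gave 3 higher and 2 lower of the 9 genes (2471 and 1618 of all) and changed no call among them. With the block, Pxmp4 came nearer to the threshold (limma adjusted p = 0.0532, against 0.175). Same-numbered arrays correlated at 0.105, -0.018 and 0.105 in their deviations, and not every array correlated best with its own number. So few values cannot tell whether the numbers pair the livers. Abcd2 in WT lay below background, so its size there is not fixed.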
